A study of Mus musculus with 12 samples.

Results

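RNA-seq of NIH 3T3, a mouse fibroblast line that grows without limit in culture, was examined for the genes of the nuclear lamins and of the LEM-domain proteins that bind them. The 10 genes were chosen by name: Tmpo, which encodes the Lap2 proteins and was the target of the siRNA, the lamin genes Lmna, Lmnb1 and Lmnb2, the lamin B receptor gene Lbr, the LEM-domain genes Emd, Lemd2, Lemd3 and Ankle2, and Banf1, which encodes the small DNA-binding protein BAF. All 10 were found among the 49671 genes listed in each library, and all 10 passed the filter on low values (more than 1 read in 3 or more libraries), as did 18668 genes in all. Cells were transfected with a negative control siRNA or with an siRNA against Lap2, directed at the membrane-bound and the nucleoplasmic forms alike, on the day after plating. Each was then taken serum-starved in 0.3% FBS, or serum-stimulated with 15% FBS for 45 min, which gave 12 libraries in 4 groups of 3. A single Lap2 siRNA was used, so loss of Lap2 and other effects of that siRNA cannot be told apart here. Nothing in the labels says that the 3 libraries of a group came from separate cultures, so p-values measure the spread between these libraries, which may be technical.

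The nuclear lamina is a meshwork of intermediate filaments beneath the inner nuclear membrane, built from A-type lamins, which Lmna encodes, and from B-type lamins, which Lmnb1 and Lmnb2 encode. LEM-domain proteins share a short fold that binds BAF, and BAF in turn binds DNA, so that chromatin, BAF, LEM proteins and lamins form connected layers at the nuclear edge. In fibroblasts these proteins are known for shaping the nucleus, for holding heterochromatin at its rim, and, in the case of the nucleoplasmic Lap2 isoform, for binding A-type lamins inside the nucleus.

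Total counts ranged from 18026298 to 26265253 per library. The replicate pairs of a group differed by a chi-square per degree of freedom of 2.52 to 7.133 over genes, apart from both pairs that hold the first library of Lap2-depleted cells in 0.3% FBS, with 18.64 and 17.45, so that this library stood apart from its group. The 8 fibroblast markers summed to 15590 to 16210 TPM in serum-starved control cells and to 9575 to 12530 TPM in serum-starved Lap2-depleted cells, and to 14990 to 16040 and 10560 to 11860 TPM in 15% FBS. Leukocyte, epithelial, endothelial and muscle markers summed to at most 8.38, 2.74, 0.49 and 0.90 TPM in any library, and the muscle genes Myod1 and Myog were at 0 throughout. TPM, a length-corrected abundance of transcripts, is a count divided by the gene's exon length and scaled to the same sum in every library. TPM is used to compare levels between genes, for ratios of genes within a library and for the summed level of a list. The length joins the exons of all transcripts of a gene, 10998 bases for Tmpo and 1496 bases for Banf1. The order of the genes by TPM thus depends on this length, whichever transcripts the cells use. A normalized count is a count scaled for library size with TMM factors, and is used to compare a single gene between groups. In these bulk libraries, fewer cells with an RNA and less of it per cell cannot be told apart, and the counts are per gene, so that the isoforms of Tmpo (13 transcripts in GENCODE M21) and of Lmna (7 transcripts) are summed.

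In serum-starved control cells, Lmna was the highest of the 10 genes with a level of 452 ± 21.2 TPM (SD, n = 3). It was followed by Banf1 with 141 ± 9.0 TPM, and then by Emd with 69.7 ± 0.71 and Lmnb1 with 65.7 ± 3.7 TPM, whose libraries overlapped. Lemd2 with 58.0 ± 4.9 and Lbr with 57.0 ± 2.3 TPM could not be separated either, and Ankle2 (43.4 ± 0.69), Tmpo (41.8 ± 0.79), Lemd3 (24.8 ± 0.31) and Lmnb2 (17.8 ± 1.6) came last, with no overlap between neighbours. Lmna and Banf1 stayed first and second in all 4 groups. Tmpo was last of the 10 in both groups of Lap2-depleted cells, with 17.3 ± 2.5 TPM in 0.3% and 9.53 ± 1.2 TPM in 15% FBS, and Lmnb2 was last in both groups of control cells. In 15% FBS Lmnb1 held the fifth place with 49.7 ± 3.6 TPM in control cells and the eighth with 27.9 ± 2.0 TPM in Lap2-depleted cells, while Ankle2 held the ninth with 36.5 ± 1.5 TPM and the sixth with 40.3 ± 2.5 TPM.

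The first comparison asked which of these genes changed when Lap2 was depleted. In serum-starved cells, Lmnb2, Banf1 and, by a small step, Lmna rose, whereas Tmpo and Lmnb1 fell, and the other 5 genes did not pass the test. In serum-stimulated cells, Lmnb2 and Lemd2 rose, and Tmpo, Lmnb1, Lbr, Emd and Lemd3 fell. Calls are those of edgeR's quasi-likelihood test with a Benjamini-Hochberg adjusted p under 0.05 over all genes tested. Of the 10 genes, 3 were thus higher and 2 lower in 0.3% FBS, against 17.8% and 18.6% of all genes, and 2 were higher and 5 lower in 15% FBS, against 11.4% and 12.1%. Without the siRNA target itself, the counts among the other 9 were 3 and 1, and 2 and 4. The median log2FC of the 10 was -0.04 in 0.3% and -0.10 in 15% FBS, beside 0.01 and 0.02 over all genes. Among the other 9 genes the largest absolute changes were those of Lmnb2, Banf1 and Lmnb1 in 0.3% FBS and of Lmnb1, Lmnb2 and Lbr in 15% FBS.

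**Figure D1:**
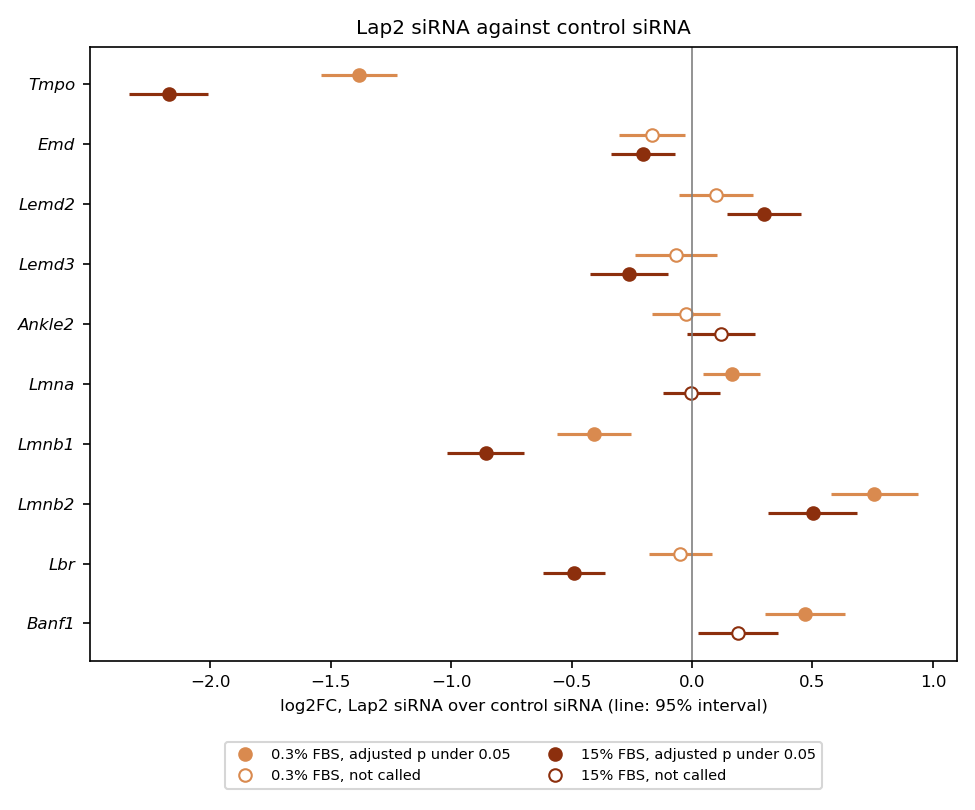
log2FC of Lap2 siRNA over control siRNA (x axis, log2 scale) for the 10 genes (y axis) in 0.3% FBS (light) and 15% FBS (dark). Points are estimates of edgeR and lines their 95% intervals, and filled points have an adjusted p under 0.05. Lmnb1 lies left of 0 and Lmnb2 right of 0 in both serum conditions, and Tmpo lies at -1.38 and -2.17.

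Tmpo (ENSMUSG00000019961, chromosome 10, 91147571 to 91181315 of mm10, minus strand) was lower in every library treated with the siRNA against it. Its normalized counts were 2775, 2805 and 2885 in serum-starved control cells and 982, 1175 and 1093 in serum-starved Lap2-depleted cells. In 15% FBS the control libraries held 3264, 3243 and 3019 and the depleted libraries 767, 745 and 607. Every depleted library thus lay below every control library, and the depleted libraries in 15% FBS lay below those in 0.3% FBS. Tmpo fell to 38.4% of the control mean in 0.3% FBS (log2FC -1.38, SE 0.077, adjusted p = 8.7e-16) and to 22.2% in 15% FBS (log2FC -2.17, SE 0.080, adjusted p = 3.8e-19). An exact two-sided permutation test of 3 against 3 libraries gave p = 0.1 for each, the smallest it can give. The residual Tmpo RNA also differed with serum: within Lap2-depleted cells it fell by 0.62 on the log2 scale after 15% FBS (SE 0.081, adjusted p = 1.9e-07), whereas in control cells the log2FC was 0.17 (95% interval 0.02 to 0.32, adjusted p = 0.081). The difference between these responses was itself called (-0.79, SE 0.11, adjusted p = 3.0e-06). At the level of RNA, depletion was therefore not equally deep in the 2 serum conditions. This difference cannot be told apart from serum itself wherever the Lap2 siRNA effects in 0.3% and 15% FBS are set against each other below. Lap2 protein was not measured in these libraries.

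**Figure D2:**
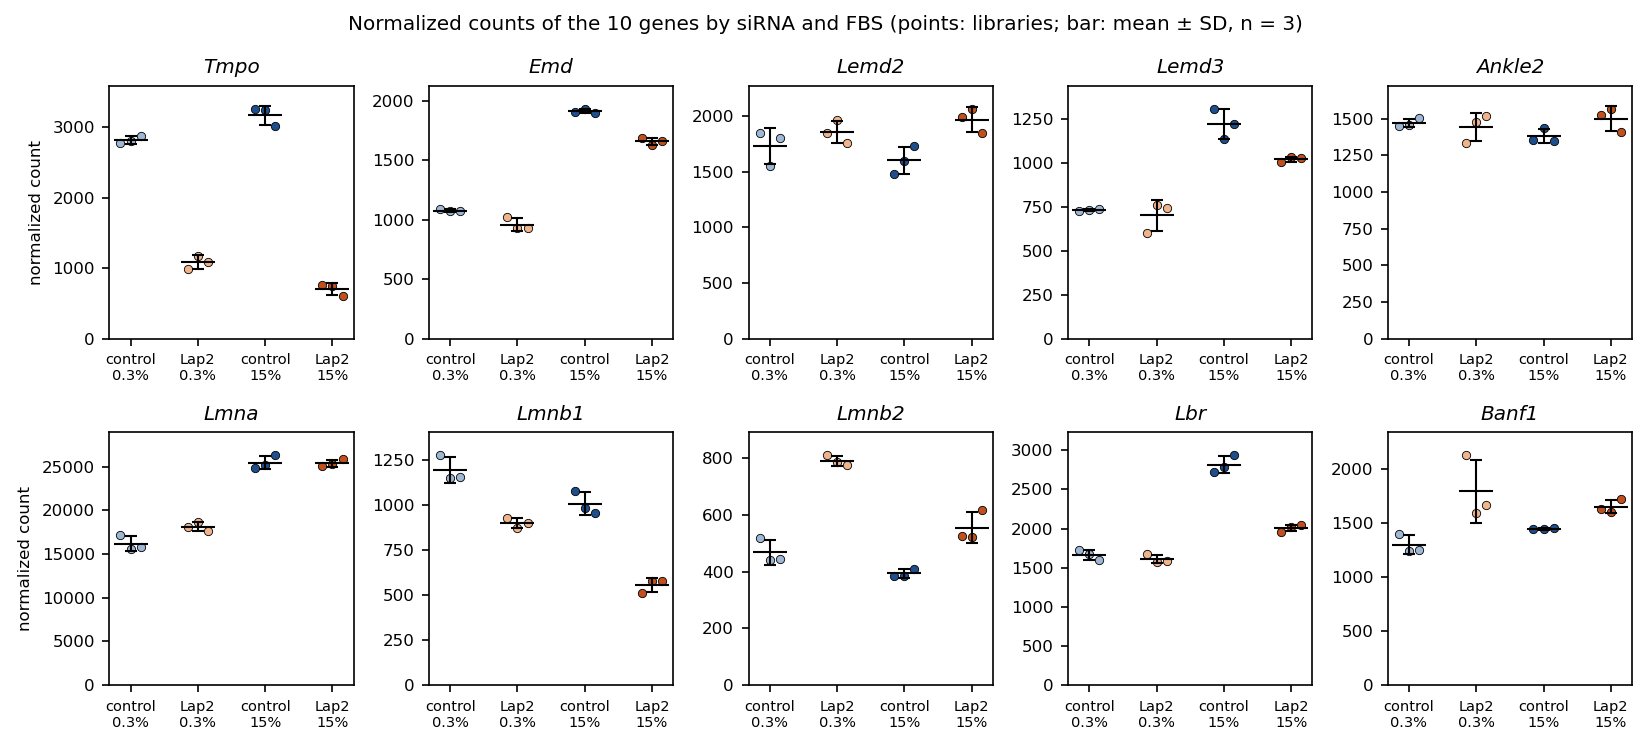
Normalized counts (y axis, from 0 in each panel) of the 10 genes in the 4 groups (x axis: siRNA and FBS). Points are libraries and bars are the mean ± SD of 3 libraries. Tmpo and Lmnb1 lie lower and Lmnb2 higher with Lap2 siRNA in both serum conditions without overlap, and Emd, Lemd3, Lmna and Lbr lie higher in 15% FBS with either siRNA.

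Lmna (ENSMUSG00000028063, chromosome 3, 88480147 to 88509956, minus strand) encodes lamins A and C. Its normalized counts were 17141, 15613 and 15806 in serum-starved control cells and 18048, 18700 and 17659 in serum-starved Lap2-depleted cells, which did not overlap. The difference was small, 1.12-fold (log2FC 0.16, SE 0.058, adjusted p = 0.025), and it was no longer called with only these 2 groups in the fit (0.15, adjusted p = 0.11) or without the second or the third control library or the second depleted library, with adjusted p-values of 0.060 to 0.070. In 15% FBS the counts were 24896, 25166 and 26283 with control and 25033, 25352 and 25840 with Lap2 siRNA. The depleted libraries lay inside the control range there, and the log2FC was -0.00 with a 95% interval of -0.12 to 0.12. The step from 0.3% to 15% FBS was larger than any effect of the siRNA on this gene: Lmna rose 1.57-fold in control cells (log2FC 0.65, SE 0.058, adjusted p = 4.0e-11) and 1.40-fold in Lap2-depleted cells (0.49, SE 0.058, adjusted p = 2.9e-08).

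Lmnb1 (ENSMUSG00000024590, chromosome 18, plus strand) encodes lamin B1. In 0.3% FBS its normalized counts were 1276, 1152 and 1154 with control and 926, 872 and 901 with Lap2 siRNA. In 15% FBS they were 1078, 986 and 957 with control and 514, 579 and 576 with Lap2 siRNA. The depleted libraries were the lower ones in both conditions with no overlap, and the gap was wider in 15% FBS. Lmnb1 fell to 75.4% of the control mean in 0.3% FBS (log2FC -0.41, SE 0.075, adjusted p = 4.3e-05) and to 55.2% in 15% FBS (-0.86, SE 0.079, adjusted p = 3.2e-10). Of the 10449 genes whose mean normalized count reached 100, 2.73% had a larger absolute log2FC than Lmnb1 in 15% FBS, and 30.2% had a larger one in 0.3% FBS. The difference between the effects was called as well (-0.45, SE 0.11, adjusted p = 0.0040). Serum stimulation lowered Lmnb1 in Lap2-depleted cells (-0.69, SE 0.079, adjusted p = 1.2e-08) and, less, in control cells (-0.24, SE 0.075, adjusted p = 0.011), where the call was lost without the first library in 0.3% FBS (-0.19, adjusted p = 0.089) and without the second or the third library in 15% FBS (-0.23 and -0.21, adjusted p = 0.053 and 0.060).

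Lmnb2 (ENSMUSG00000062075, chromosome 10, 80901203 to 80918245, minus strand), the gene of lamin B2, moved the other way. Its normalized counts were 519, 440 and 444 in serum-starved control cells and 810, 785 and 776 in serum-starved Lap2-depleted cells. After 15% FBS they were 386, 385 and 410 with control and 527, 523 and 617 with Lap2 siRNA. Every depleted library was above every control library of the same serum condition. Lmnb2 rose 1.69-fold in 0.3% FBS (log2FC 0.76, SE 0.088, adjusted p = 1.5e-08) and 1.41-fold in 15% FBS (0.50, SE 0.092, adjusted p = 8.0e-05), and the difference between both effects was not called (-0.26, 95% interval -0.52 to 0.00, adjusted p = 0.21). Serum stimulation lowered it in Lap2-depleted cells (-0.51, SE 0.087, adjusted p = 1.9e-05). In control cells it also fell (-0.25, SE 0.092, adjusted p = 0.038), a call that was lost when the first library in 0.3% FBS was left out (-0.16, adjusted p = 0.26), when the first or the second in 15% FBS was (-0.24 and -0.23, adjusted p = 0.11 each), and when the second Lap2-depleted library in 0.3% FBS was (-0.24, adjusted p = 0.054).

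The opposite changes of the B-type lamin genes altered their balance. The ratio of Lmnb1 to Lmnb2 TPM was 3.56, 3.79 and 3.76 in serum-starved control libraries and 1.66, 1.61 and 1.68 in serum-starved Lap2-depleted libraries. In 15% FBS it was 4.04, 3.71 and 3.37 with control and 1.41, 1.60 and 1.35 with Lap2 siRNA. Every ratio with Lap2 siRNA was thus below every ratio with control siRNA, and the mean fell from 3.70 ± 0.13 to 1.65 ± 0.038 in 0.3% FBS and from 3.71 ± 0.33 to 1.45 ± 0.13 in 15% FBS (SD, n = 3). The exact permutation p was 0.1 in each condition, the smallest that 3 against 3 allows. Within control cells the ratio did not move with serum beyond its spread (3.70 against 3.71, exact permutation p = 1). Within Lap2-depleted cells it was lower in 15% FBS without overlap (1.65 against 1.45, exact permutation p = 0.1). The B-type genes together held 15.6 ± 0.21% of the lamin TPM in serum-starved control cells and 13.6 ± 0.54% in serum-starved Lap2-depleted cells. In 0.3% FBS the mean of Lmna was 452 TPM with control and 544 TPM with Lap2 siRNA. Lmnb1 was at 65.7 and 53.1 TPM and Lmnb2 at 17.8 and 32.2 TPM in the same order. The lower share there thus went with a higher Lmna TPM, while the B-type genes changed in opposite directions. Unlike the share, these single-gene TPM values depend on the scaling between libraries, and in normalized counts Lmna was 1.12-fold higher. In 15% FBS, where Lmna was higher, the B-type genes held 9.02 ± 0.56% and 6.79 ± 0.32%. These groups did not overlap either (exact permutation p = 0.1 for each pair of siRNAs). Both measures are ratios within a library and do not depend on the scaling between libraries.

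**Figure D3:**
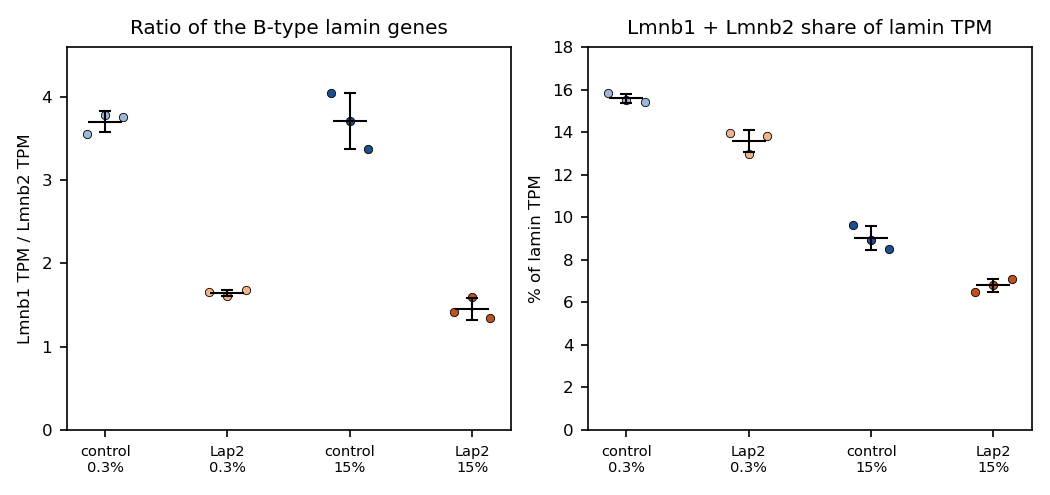
Ratio of Lmnb1 to Lmnb2 TPM (left, y axis) and the share of both genes in the TPM of the 3 lamin genes (right, y axis in %) in the 4 groups (x axis: siRNA and FBS). Points are libraries and bars the mean ± SD of 3 libraries. The ratio lies at 3.37 to 4.04 with control and at 1.35 to 1.68 with Lap2 siRNA, and the share is lower in 15% than in 0.3% FBS.

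Lbr (ENSMUSG00000004880, chromosome 1, 181815335 to 181843046, minus strand) encodes the lamin B receptor, a membrane protein that binds B-type lamins and heterochromatin and that also acts as a sterol reductase. Its normalized counts in 0.3% FBS were 1728, 1670 and 1602 with control and 1671, 1577 and 1582 with Lap2 siRNA. After 15% FBS they were 2720, 2790 and 2935 with control and 1960, 2016 and 2041 with Lap2 siRNA. The groups overlapped in starved cells and were separate in stimulated cells, where the depleted libraries were the lower ones. The effect of Lap2 siRNA was -0.05 in 0.3% FBS (95% interval -0.18 to 0.08, adjusted p = 0.60) and -0.49 in 15% FBS (SE 0.063, adjusted p = 3.0e-07). The difference between these effects was -0.44 (SE 0.090, adjusted p = 6.8e-04). Seen as a response to serum, Lbr rose 1.69-fold in control cells (log2FC 0.76, SE 0.063, adjusted p = 9.6e-12) and 1.25-fold in Lap2-depleted cells (0.32, SE 0.064, adjusted p = 1.7e-04), and the latter call was lost when libraries were scaled to total counts (0.09, adjusted p = 0.31).

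Emd, Lemd3, Lemd2 and Ankle2 are the LEM-domain genes chosen beside Tmpo, and none of these 4 was called with Lap2 siRNA in 0.3% FBS. In 15% FBS Emd (log2FC -0.20) and Lemd3 (-0.26) were called lower and Lemd2 (0.30) higher. Serum changed 2 of the 4, Emd and Lemd3. The LEM-domain genes Ankle1 and Lemd1 are described below with the other lists. Emd (ENSMUSG00000001964, chromosome X, 74254687 to 74261548, plus strand) encodes emerin, an inner nuclear membrane protein. Its normalized counts were 1089, 1069 and 1071 with control and 1019, 926 and 930 with Lap2 siRNA in 0.3% FBS. In 15% FBS they were 1905, 1931 and 1900 with control and 1689, 1629 and 1664 with Lap2 siRNA. The depleted libraries were lower in both conditions without overlap, by a small margin beside the step between serum conditions. In 0.3% FBS the log2FC of -0.17 (95% interval -0.30 to -0.03) had an adjusted p of 0.051, just over the threshold. Of 20 alternatives, 5 called it there, among them the fit without the first depleted library, the one that stood apart (-0.20, adjusted p = 0.016). With 1 library left out the log2FC reached -0.13 at its smallest, with adjusted p-values up to 0.22. In the other alternatives it reached -0.06, with adjusted p-values up to 0.55. In 15% FBS it fell (-0.20, SE 0.065, adjusted p = 0.019), and the call was lost with scaling to total counts (-0.12, adjusted p = 0.20), and without the second control or the second depleted library of 15% FBS (-0.20 and -0.19, adjusted p = 0.069 and 0.079). Serum raised Emd 1.78-fold in control cells (log2FC 0.83, SE 0.066, adjusted p = 2.5e-12) and 1.73-fold in Lap2-depleted cells (0.79, SE 0.067, adjusted p = 1.3e-11), and the difference of -0.04 had a 95% interval of -0.23 to 0.15.

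Lemd3 (ENSMUSG00000048661, chromosome 10, 120923413 to 120979332, minus strand) encodes MAN1, which also binds receptor-activated Smad proteins. In 0.3% FBS its normalized counts were 727, 734 and 739 with control and 601, 760 and 744 with Lap2 siRNA, so that the groups overlapped and the first depleted library was the lowest. In 15% FBS they were 1306, 1136 and 1223 with control and 1003, 1032 and 1025 with Lap2 siRNA, and all depleted libraries were below the controls. Lap2 siRNA gave a log2FC of -0.07 in 0.3% FBS (95% interval -0.23 to 0.10) and Lemd3 fell in 15% FBS (-0.26, SE 0.080, adjusted p = 0.014). The latter call was lost with total-count scaling (-0.18, adjusted p = 0.11), without the first control library (-0.22, adjusted p = 0.086) and without the first depleted library of 15% FBS (-0.25, adjusted p = 0.054). Serum raised Lemd3 1.67-fold in control cells (0.74, SE 0.081, adjusted p = 4.5e-09) and 1.45-fold in depleted cells (0.54, SE 0.082, adjusted p = 2.4e-06). The difference of -0.20 was not called (95% interval -0.43 to 0.04), but was without the first depleted library in 0.3% FBS (-0.33, adjusted p = 0.016).

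Lemd2 (ENSMUSG00000044857, chromosome 17, 27189601 to 27204438, minus strand) encodes a LEM protein that takes part in sealing the envelope after mitosis. Its normalized counts were 1854, 1553 and 1803 with control and 1852, 1965 and 1760 with Lap2 siRNA in 0.3% FBS, which overlapped. In 15% FBS they were 1482, 1597 and 1731 with control and 1996, 2067 and 1846 with Lap2 siRNA, which did not. It rose there 1.23-fold (log2FC 0.30, SE 0.075, adjusted p = 0.0031), and without the first control library of 15% FBS the adjusted p was 0.051 (0.23). In 0.3% FBS the log2FC was 0.10 (95% interval -0.05 to 0.25), and it was called with total-count scaling (0.21, adjusted p = 0.025). Lemd2 did not pass the test for serum, with log2FC of -0.12 (95% interval -0.27 to 0.04) in control and 0.08 (-0.07 to 0.24) in depleted cells.

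Ankle2 (ENSMUSG00000029501, chromosome 5, 110231004 to 110256651, plus strand) encodes a LEM protein that controls the phosphorylation of BAF at the end of mitosis. Its largest absolute log2FC between groups, 0.12, was the smallest such value of the 10 genes, with group means of 1471, 1381, 1446 and 1501 normalized counts in starved control, stimulated control, starved depleted and stimulated depleted cells, and with libraries between 1338 and 1567. It passed none of the 5 tests. Scaling to total counts called it higher with Lap2 siRNA in 15% FBS (0.21, adjusted p = 0.026) and lower with serum in both control (-0.30) and depleted cells (-0.18, adjusted p = 0.042). The 95% intervals of its log2FC were -0.17 to 0.12 and -0.02 to 0.26 for Lap2 siRNA in 0.3% and 15% FBS, and -0.23 to 0.05 and -0.09 to 0.19 for serum in control and depleted cells.

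Banf1 (ENSMUSG00000024844, chromosome 19, 5364641 to 5366645, minus strand) encodes BAF, the chromatin partner of the LEM domain. Its normalized counts were 1399, 1243 and 1251 in serum-starved control cells and 2126, 1592 and 1665 in serum-starved Lap2-depleted cells. In 15% FBS they were 1444, 1442 and 1455 with control and 1629, 1606 and 1722 with Lap2 siRNA. The depleted libraries were higher in both conditions without overlap, and the highest value was that of the library that stood apart. Banf1 rose 1.38-fold in 0.3% FBS (log2FC 0.47, SE 0.082, adjusted p = 1.8e-05), and it was called there with each library left out, at 0.34 to 0.56. In 15% FBS it reached 1.14-fold and was not called (0.19, 95% interval 0.03 to 0.36, adjusted p = 0.092), and it was called with only the groups in 15% FBS in the fit (0.18, adjusted p = 0.012), with total counts (0.28, adjusted p = 0.0090) and without the depleted library of 0.3% FBS that stood apart (0.18, adjusted p = 0.017). The response to serum was 0.16 in control and -0.12 in Lap2-depleted cells, and neither was called, although total counts called the latter (-0.35, adjusted p = 6.0e-04) and moved the former to -0.05. The difference of -0.28 had an adjusted p of 0.12, and of 0.023 and 0.046 without the second and the third depleted library in 0.3% FBS, at -0.38 and -0.35.

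The second comparison asked how the 10 genes responded to 45 min of 15% FBS. Lmna, Lbr, Emd and Lemd3 rose with either siRNA, by 1.57- to 1.78-fold in control cells and by 1.25- to 1.73-fold in Lap2-depleted cells. Lmnb1 and Lmnb2 fell with either siRNA, and Tmpo fell in Lap2-depleted cells. Banf1, Lemd2 and Ankle2 did not pass the test in either. In control cells 4 of the 10 were higher and 2 lower, against 15.6% and 13.9% of all genes, and in Lap2-depleted cells 4 were higher and 3 lower, against 18.3% and 14.9%. The median log2FC of the 10 was 0.16 and 0.07, beside -0.01 and 0.00 over all genes. Scaling to total counts shifted the median of all genes by serum to -0.21 in control and -0.23 in depleted cells, and upper-quartile scaling to -0.10 and -0.11. Under total counts Lmna, Lbr, Emd and Lemd3 still lay above 0 with either siRNA, although Lbr was not called in depleted cells, and Lemd2 and Ankle2 were called lower in control cells (-0.32 and -0.30, adjusted p = 6.9e-04 and 7.7e-04).

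**Figure D4:**
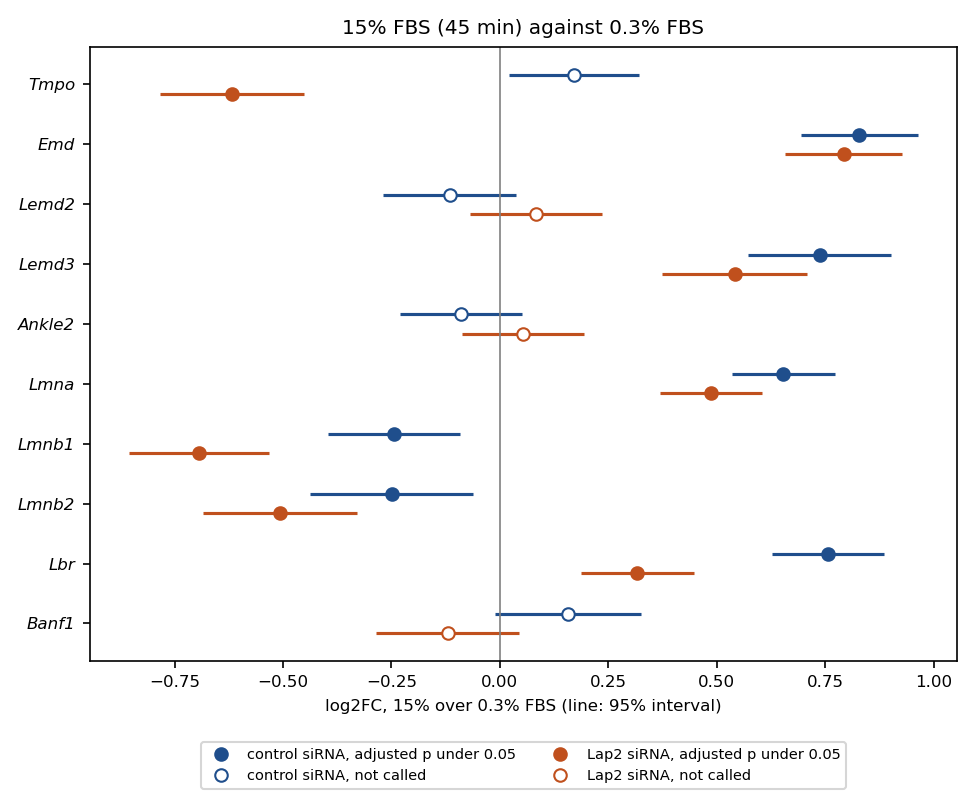
log2FC of 15% over 0.3% FBS (x axis, log2 scale) for the 10 genes (y axis) with control siRNA (blue) and Lap2 siRNA (orange). Points are estimates of edgeR, lines their 95% intervals, and filled points have an adjusted p under 0.05. Emd, Lemd3, Lmna and Lbr lie right of 0 with either siRNA, and the intervals of Tmpo, Lmnb1 and Lbr do not meet between the siRNAs.

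The third comparison tested whether the response to serum differed between the siRNAs, which is the same difference as that between the Lap2 siRNA effects in 15% and 0.3% FBS. It was more negative in Lap2-depleted cells for Tmpo, Lmnb1 and Lbr, and more positive for none of the 10, against 6.51% and 7.09% of all genes. The 7 genes that were not called were Lmna, Lmnb2, Emd, Banf1, Lemd2, Lemd3 and Ankle2. The median of the 10 was -0.23, beside 0.02 over all genes. Tmpo, Lmnb1 and Lbr were called under every alternative run, at -0.89 to -0.70, -0.52 to -0.40 and -0.49 to -0.40 with 1 library left out. Without the first Lap2-depleted library in 0.3% FBS, 5 of the 10 were called, with Lmna (-0.20, adjusted p = 0.030) and Lemd3 added.

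Promoter sequence was examined for those of the 10 genes with a RefSeq window, whether or not they changed. RefSeq windows of 250 bases before the start of transcription on GRCm38.p6, the assembly also called mm10, were matched by symbol for 8 of the 10 genes. No window was matched for Lmnb1 and Lemd2. Of the 8 genes, 4 had 2 windows each, so that 12 windows were searched. Both strands were searched for the CArG box, to which serum response factor binds, for the CCAAT box (CCAAT), for an E2F word (TTTCCCGC, TTTCGCGC, TTTGCCGC or TTTGGCGC) and for the CHR word of cell cycle genes (TTTGAA or TTCGAA). None of the 12 windows held a CArG box, which 1.47% of the 32841 windows of all genes hold. A CCAAT box, found in 33.9% of all windows, was present in 6 of the 12, 1 each of Tmpo, Lmna, Lbr, Emd, Banf1 and Lemd3. The E2F word, found in 1.86%, was present in 2 of the 12, 1 of Tmpo and 1 of Banf1, and the CHR word, found in 17.1%, in 2, 1 of Tmpo and that of Lbr. The windows of Lmnb2 and Ankle2 held none of these words. Printed 5′ to 3′ on the gene's strand with the matched words in capitals are the windows of Lbr (chr1:181842402-181842651), Emd (chrX:74254437-74254686) and Lemd3 (chr10:120979331-120979580), which rose with serum, and the first windows of Lmnb2 (chr10:80918246-80918495) and Banf1 (chr19:5366877-5367126), which rose with Lap2 siRNA in starved cells. Emd lies on the plus strand and the others on the minus strand. A match is a description of the letters and no evidence of binding.
Lbr: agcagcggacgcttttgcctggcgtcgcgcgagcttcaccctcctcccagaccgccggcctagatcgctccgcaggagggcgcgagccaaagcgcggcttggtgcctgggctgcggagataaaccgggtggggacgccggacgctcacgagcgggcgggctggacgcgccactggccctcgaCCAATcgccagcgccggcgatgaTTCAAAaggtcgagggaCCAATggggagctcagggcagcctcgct
Emd: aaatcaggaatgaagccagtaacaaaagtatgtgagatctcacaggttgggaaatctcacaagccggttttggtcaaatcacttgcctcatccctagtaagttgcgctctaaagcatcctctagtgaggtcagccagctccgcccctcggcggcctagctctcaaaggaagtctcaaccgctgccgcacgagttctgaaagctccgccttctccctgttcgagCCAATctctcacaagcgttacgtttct
Lemd3: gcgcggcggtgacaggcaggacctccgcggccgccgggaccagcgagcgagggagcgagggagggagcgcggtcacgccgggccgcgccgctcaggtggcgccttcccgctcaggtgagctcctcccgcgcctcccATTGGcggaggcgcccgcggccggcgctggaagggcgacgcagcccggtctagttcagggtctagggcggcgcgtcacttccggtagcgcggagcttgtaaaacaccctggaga
Lmnb2: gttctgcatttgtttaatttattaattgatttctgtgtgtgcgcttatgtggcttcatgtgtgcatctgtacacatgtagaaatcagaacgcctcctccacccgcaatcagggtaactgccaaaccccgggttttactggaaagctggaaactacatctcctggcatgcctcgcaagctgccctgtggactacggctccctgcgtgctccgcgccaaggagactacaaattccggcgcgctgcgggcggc
Banf1: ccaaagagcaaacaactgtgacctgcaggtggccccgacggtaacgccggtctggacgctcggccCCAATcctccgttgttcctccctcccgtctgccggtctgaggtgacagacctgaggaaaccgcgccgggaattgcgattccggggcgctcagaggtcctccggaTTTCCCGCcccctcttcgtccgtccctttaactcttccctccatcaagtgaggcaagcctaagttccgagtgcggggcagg

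Among these windows the CCAAT boxes of Lbr lay 68 and 28 bases before the start, that of Emd 27 bases and that of Lemd3 114 bases before it, the last on the opposite strand. In the window of Banf1 the CCAAT box lay 185 and the E2F word 81 bases before the start. Lbr also held the CHR word, 45 bases before the start and on the opposite strand. The window of Lmnb2 was 52.8% G or C, against 69.6% for Lbr, 51.2% for Emd, 74.4% for Lemd3 and 62.8% for Banf1.

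Other genes of the nuclear envelope were described by lists, counted under the same test. Each count of a list is to be set beside the share of all genes called. With Lap2 siRNA, 17.8% of all genes were higher and 18.6% lower in 0.3% FBS, and 11.4% and 12.1% in 15% FBS. Ankle1, a LEM-domain endonuclease, rose from 102 ± 19.1 to 283 ± 48.6 normalized counts (SD, n = 3) with Lap2 siRNA in 0.3% FBS (log2FC 1.47, adjusted p = 2.6e-09) and from 78.8 ± 13.4 to 135 ± 19.7 in 15% FBS (0.79, adjusted p = 8.0e-04). Lemd1 had at most 3 counts in any library and did not pass the test. Of the 6 genes of the LINC complex, which links the nuclear lamina to the cytoskeleton, 3 rose in starved cells, namely the nesprin genes Syne2 (0.73) and Syne1 (0.43) and the SUN-domain gene Sun2 (0.36), and Syne3 fell (-0.39). In 15% FBS Syne2 (0.28) and Sun2 (0.18, adjusted p = 0.047) were called higher. Neither was called without the first or the second control library of 15% FBS or without the first or the third depleted one. Only 1 LINC gene was higher with no filter on low counts, with a replicate block or without the second depleted library of 15% FBS. The same held without any single control library, or the second or the third depleted library, of 0.3% FBS. Of 10 other inner membrane and torsin genes, Nemp1 (0.99), Nrm (0.54), Tor1b (0.24) and Tor1aip2 (0.16, adjusted p = 0.037) rose in 0.3% FBS. The number higher there was 3 in several alternatives, among them a replicate block and a fit of only the groups compared. In 15% FBS Nemp1 (0.61) and Tor1aip2 (0.22) rose and Tmem201 (-0.48) fell. The farnesyltransferase genes Fnta (-0.33) and Fntb (-0.30), whose products prenylate lamins at the CaaX end, fell in 0.3% FBS, and the CaaX protease gene Rce1 (-0.33) fell in 15% FBS, of 5 genes in all.

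Among 8 chromatin and kinase partners, Vrk1 (0.73), the kinase that phosphorylates BAF, the heterochromatin protein genes Cbx1 (0.34) and Cbx5 (0.29) and Rb1 (0.33), the retinoblastoma gene, rose in 0.3% FBS, while Gmcl1 (-0.55), whose product binds Lap2β and emerin, and Hdac3 (-0.17, adjusted p = 0.048) fell. The number lower was 1 with total counts, upper-quartile scaling, no filter on low counts, a replicate block or only the groups compared. It was also 1 without the second or the third library of either group in 0.3% FBS. The same held without the first or the second library of either group in 15% FBS. The number higher was 3 without the first control or the second depleted library of 0.3% FBS. In 15% FBS Cbx1 (0.44) rose and Gmcl1 (-0.40) fell. Of the 8 genes of the ESCRT-III machinery that seals the envelope, Chmp3 (-0.52), Vps4b (-0.36), Chmp2a (-0.27) and Chmp7 (-0.20) fell in 0.3% FBS and Chmp3 (-0.25) fell in 15% FBS, and none rose in either. The number lower in 0.3% FBS was 2 with total counts and without the second or the third depleted library, and in 15% FBS it was 0 with total counts.

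Of the 39 genes in these lists, the interaction was negative for 6, namely Syne2 (-0.46), Syne1 (-0.37), Tmem201 (-0.42), Nemp1 (-0.39), Vrk1 (-0.62) and Cbx5 (-0.32), and positive for Chmp3 (0.27), against 6.51% and 7.09% of all genes. These counts depended on single libraries. In the LINC list the 2 negative calls became 3 without the first depleted library in 0.3% FBS, stayed at 2 without the third control library in 0.3% FBS or the third depleted library in 15% FBS, and became 1 without any other. Among the inner membrane and torsin genes there were 0 without the third control library in 0.3% FBS or the first depleted library in 15% FBS, 4 without the first depleted library in 0.3% FBS, 3 without the first control library in 0.3% FBS, and 1 without the second control library in either condition, the third control library in 15% FBS, the second or the third depleted library in 0.3% FBS or the second depleted library in 15% FBS. Vrk1 and Cbx5 were the 2 of their list, which held 1 without the first or the second control library or the second depleted library in 15% FBS. The ESCRT-III list held 2 positive calls without the first depleted library in 0.3% FBS, 1 without the first control library in 15% FBS, and 0 without any other, with total counts or with upper-quartile scaling.

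The nuclear pore complex genes moved further in 1 direction than the lamina genes did. In serum-starved cells 22 of 30 were higher with Lap2 siRNA, among them Nup155 (0.88), Nup93 (0.87) and Ndc1 (0.71). The median log2FC of the 30 was 0.41, and 17.8% of all genes were higher. A single one of the 30, Nup50 (-0.37), was lower, against 18.6% of all genes, and is named here for being the sole exception. In 15% FBS 6 were higher and 1 lower, against 11.4% and 12.1% of all genes. The furthest from 0 among those called were Nup58 (0.39), Nup42 (0.28) and Nup50 (-0.27), and the median of the 30 was 0.07. The number higher was 11 with total counts, and 1 without the first control or without the third depleted library of 15% FBS, 2 without the third control and 3 without the first depleted library. The interaction was negative for 14 of the 30, led by Nup155 (-0.68), Aaas (-0.66) and Ndc1 (-0.65), against 6.51% of all genes.

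Genes of DNA replication and of mitosis moved in the same libraries. These lists were chosen with earlier results of these data known, so their counts describe these libraries and are no independent test. Over all genes, 17.8% were higher with Lap2 siRNA in 0.3% FBS, and 11.4% were higher and 12.1% lower in 15% FBS. The interaction was negative for 6.51% of all genes. All 15 replication genes rose with Lap2 siRNA in 0.3% FBS with a median of 1.03, led by Ccne2 (1.60), Cdt1 (1.29) and Mcm3 (1.20), and their summed level was 466 to 521 TPM in control and 952 to 1008 TPM in depleted libraries. All 15 mitosis genes rose as well with a median of 0.84, led by Mki67 (1.43), Bub1 (1.29) and Kif11 (1.17), from summed levels of 459 to 508 TPM to 845 to 1001 TPM. In 15% FBS the summed levels were 522 to 565 and 609 to 709 TPM for replication and 425 to 456 and 472 to 520 TPM for mitosis, and 8 replication genes, led by Ccne2 (0.79), Cdt1 (0.77) and Cdc6 (0.46), and 6 mitosis genes were higher and Cdk1 (-0.53) and Cenpf (-0.32) lower. The replication count was 5 without the first control or the third depleted library of 15% FBS, and the mitosis count 4 without the second or the third control or the second depleted library. The interaction was negative for 14 replication genes, among them Tyms (-1.06) and Rrm2 (-0.85), and for 15 mitosis genes, led by Mki67 (-1.04), Cenpf (-0.96) and Bub1 (-0.93). Lmnb2 and Banf1 were higher in the same depleted libraries in 0.3% FBS and Lmnb1 was lower in them. Of the 8 fibroblast markers, 6 fell and Fn1 (0.37) rose with Lap2 siRNA in 0.3% FBS, against 18.6% and 17.8% of all genes. In 15% FBS 7 were lower and 0 higher, against 12.1% and 11.4%. Across the alternatives 5 to 6 were lower and 1 to 2 higher in 0.3% FBS. The numbers in 15% FBS were 6 to 7 and 0 to 1. Any part of the replication, mitosis and lower summed fibroblast marker levels in the changes of the 10 genes was not tested.

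**Figure D5:**
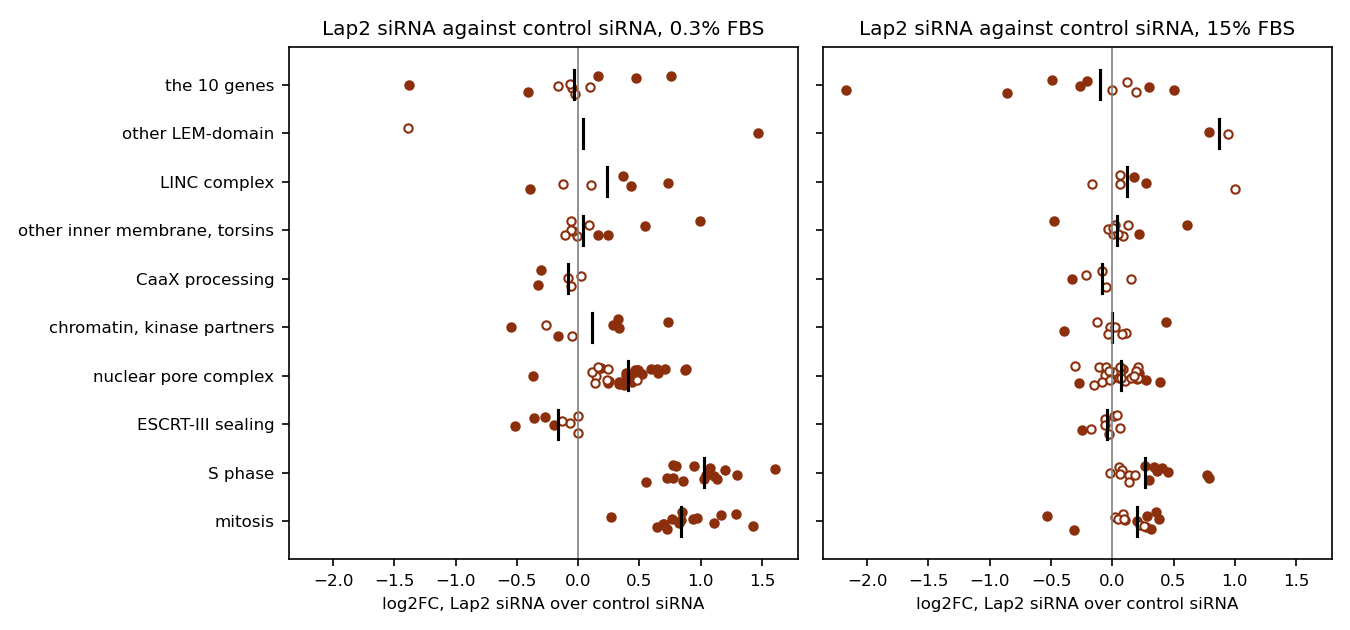
log2FC of Lap2 siRNA over control siRNA (x axis, log2 scale) for the genes of each list (y axis) in 0.3% FBS (left) and 15% FBS (right). Points are genes, filled with an adjusted p under 0.05, and black lines are medians. The 10 lamina and LEM-domain genes spread to both sides of 0, while the replication and mitosis genes all lie right of 0 in 0.3% FBS with medians of 1.03 and 0.84.

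Genes that overlap a member on the genome could share reads with it, since the sources used here do not say whether counting used the strand of the reads. The largest overlaps of exons were 440 bases between Lbr and Dnah14 and 244 bases between Tmpo and Gm26765, both on the opposite strand, and 343 bases between Emd and the pseudogene Gm14686 on the same strand, which was at 0 in all libraries. Every overlapping gene had at most 11 counts in any library, against at least 368 for any of the 10 genes. How reads lying in both genes were counted is not given, so these counts cannot show whether a member lost such reads.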

How the data were processed

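The values deposited by the authors are raw counts of reads per gene. Per the labels and the study's methods, directional libraries of rRNA-depleted RNA were aligned with TopHat2 (Chipster, default settings) to mm10 (GRCm38) and counted with HTSeq. Tool versions, the annotation and the use of strand are not given in the sources used here.

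From the counts, edgeR 4.0.16 in R 4.3.3 (TMM, glmQLFit, glmQLFTest, a mean for each of 4 groups over 12 libraries) tested the 18668 genes that had more than 1 read in 3 or more libraries, with Benjamini-Hochberg adjustment and a threshold of 0.05. The SE of a log2FC was taken from the F statistic and the 95% interval from its degrees of freedom. Normalized counts were brought to a mean scaled library size of 21092260. TPM used the union of exons in GENCODE M21. On simulated counts of 18126 genes for Lap2 siRNA in 0.3% FBS, 82% of 200 genes changed by a log2FC of 1 were recovered, and 6 of the unchanged genes passed. The changed genes were drawn without the lowest expressed ones. Spread was taken from its trend over genes, and no library was made to stand apart. Among the 10 genes, every log2FC outside Tmpo was smaller in size than 1, so these figures do not give the recovery of such changes. At 18026298 to 26265253 reads per library, the SE of a difference between 2 groups was 0.058 to 0.092 for the 10 genes, and the 3 libraries per group limit exact tests to p = 0.1.

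The alternatives were DESeq2 1.42.0, total-count and upper-quartile scaling, 3 other filters, a fit restricted to the 2 groups of a contrast, a replicate block, and each library left out. Named beside the 10 genes are, for each list and Lap2 siRNA contrast and the interaction, up to 3 called genes with the largest absolute log2FC and a mean of at least 50 normalized counts, any gene of a list of 10 or fewer, and genes overlapping a member; single exceptions were named after their values were seen. The members and lists were chosen with earlier results of these data known. Figures were drawn with matplotlib 3.10.9 and tables written with pandas 2.3.3. ChIP-seq was not analysed here.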

Additional observations from a re-analysis of the deposited data

Results flagged for a closer look

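For 3 of the 10 genes, Lap2 siRNA had unequal effects in 15% and 0.3% FBS, by edgeR's test of the difference itself over all 18668 genes. The log2FC in 15% FBS minus that in 0.3% FBS was -0.79 for Tmpo (adjusted p = 3.0e-06), -0.45 for Lmnb1 (adjusted p = 0.0040) and -0.44 for Lbr (adjusted p = 6.8e-04). For Tmpo and Lmnb1 the gene fell in both serum conditions and further in 15% FBS, and for Lbr it fell in 15% FBS, while in 0.3% FBS its log2FC was -0.05. In each case the 3 Lap2-depleted libraries of 15% FBS lay below the 3 control libraries. The depth of Tmpo RNA depletion differed between the serum conditions as well, and its part in the other differences was not tested.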

How the results depend on the processing

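The 50 log2FC of the 10 genes (5 contrasts each) were recomputed under 20 alternatives, which gave 990 values. Of these, 945 kept their side of the threshold, 19 lost and 25 gained a call, and 1 was called with the opposite sign: Ankle2 for serum with Lap2 siRNA under total counts (-0.18, adjusted p = 0.042, against 0.05). Another 16 values changed sign between estimates that were not called. With 1 library left out, 4 to 6, 5 to 8, 4 to 8 and 7 of the 10 genes were called for Lap2 siRNA in 0.3% and 15% FBS and for serum with control and Lap2 siRNA, and 3 to 5 for the interaction, where 5 came without the first Lap2-depleted library in 0.3% FBS.

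Over all genes, leaving 1 library out gave 5924 to 7019, 3410 to 5177, 4713 to 6343, 5279 to 6466 and 1886 to 3529 calls in the order above. Total counts changed the split of higher and lower calls to 4692 and 2638 (from 3330 and 3480), 3471 and 1678 (from 2125 and 2250), 1632 and 5847 (from 2915 and 2597) and 1658 and 5951 (from 3420 and 2777), and upper-quartile factors changed both serum splits to 2183 and 3878 and to 2383 and 3942.

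The groups share replicate numbers, but same-numbered libraries did not deviate together: 0 of 18 correlations over 10449 genes were over 0.1 (-0.12 to 0.10), and 3 of 12 libraries were closest to their own number. With a replicate block, 6756, 4343, 5509, 6121 and 2553 genes were called, against 6810, 4375, 5512, 6197 and 2540 without it.

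Each of the 10 genes had at least 368 counts in every library. With 3 libraries per group, exact tests cannot go below p = 0.1.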
